A study of Mus musculus with 4 samples.

Results

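The genes described here encode the machinery that brings new proteins into the endoplasmic reticulum (ER) and folds them there: the protein subunits of the signal recognition particle (SRP), its receptor, the Sec61 channel and its partners, signal peptidase, oligosaccharyltransferase, and the chaperones and disulfide isomerases of the ER. They were chosen by symbol, from a list of 37, in a table of 16470 RefSeq transcripts, and 36 were found, each with 1 transcript. Srp19, an SRP subunit, was not analysed here. The SRP subunit genes Srp54a, Srp54b and Srp54c were kept in a separate list of other targeting genes. The sum of their reads was 14756 in the mutant immunoprecipitate, 9972 in the mock immunoprecipitate, 743 in the mutant input and 669 in the mock input.

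In this pathway SRP, a complex of 7SL RNA and a set of proteins, binds the signal sequence of a growing protein on the ribosome and docks on its receptor in the ER membrane. The chain then passes into the Sec61 channel, its signal sequence is cut off, sugar chains are added to asparagines, and chaperones hold it while it folds. Dis3l2 is an exoribonuclease that degrades RNA from the 3′ end and prefers RNA with an added tail of uridines. The study sequenced RNA that came down with a mutant form of Dis3l2. Among the genes here, the Srp ones encode the proteins that sit on 7SL.

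The study used C57BL/6 mouse embryonic stem cells, kept without feeders on gelatin in serum with LIF and taken between passages 25 and 30. One set was transfected with FLAG-tagged mutant Dis3l2 and the other was mock transfected. The labels name neither the mutation nor the promoter of the construct, and the cells are not described as lacking their own Dis3l2. The 4 groups, with 1 library each, were mutant IP (RNA recovered on anti-FLAG M2 gel from cells with the tagged mutant), mock IP (the same gel with mock-transfected cells), mutant input and mock input. The inputs were selected with RiboMinus, which removes ribosomal RNA, and the IP RNA is labelled only as RIP RNA, so IP and input may also differ in how the RNA was selected. With 1 library a group there is no replicate check and no test between conditions. All intervals below are exact 95% binomial intervals that cover counting error only.

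The mRNA table held 2275647 mutant IP reads, 1860030 in the mock IP, 307324 in the mutant input and 291175 in the mock input. The gene Lars2 took 52.0%, 58.6%, 33.3% and 34.8% of these. Each deposited value is a read count divided by 1 constant per library, which is 2.7 for the mutant IP, 2.5 for the mock IP, 1.8 for the mutant input and 2.5 for the mock input. A fold below is a ratio of deposited values, a log2 ratio has 1 added to both values first, and values are not divided by transcript length, so reads of different genes are not compared as levels. All 10 embryonic stem cell markers looked for were in the table, with sums of 4004, 2732, 141 and 177 reads in the same order of libraries, and Pou5f1 alone had 329, 261, 48 and 62. Of 7 fibroblast markers 3 were in the table, with sums of 99, 27, 16 and 10 reads, most of them from Col1a1. Thy1 had 26 mutant IP reads and 3 mock IP reads, and Col1a2 was at 0 in the mutant IP and the mutant input. Of 7 endoderm markers 5 were in the table, with sums of 32, 35, 6 and 7 reads, and these went opposite ways between the IPs: Gata4 and Sox7 had 20 and 12 mutant IP reads against 0 in the mock IP, and Afp and Ttr had 0 against 25 and 9. Gata6 had 1 read in all. Of 5 trophectoderm markers 4 were in the table, with sums of 20, 38, 5 and 3 reads, and Cdx2 was at 0 in all 4 libraries. The part of fibroblast or endoderm RNA in the results below was not tested.

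**Figure D1:**
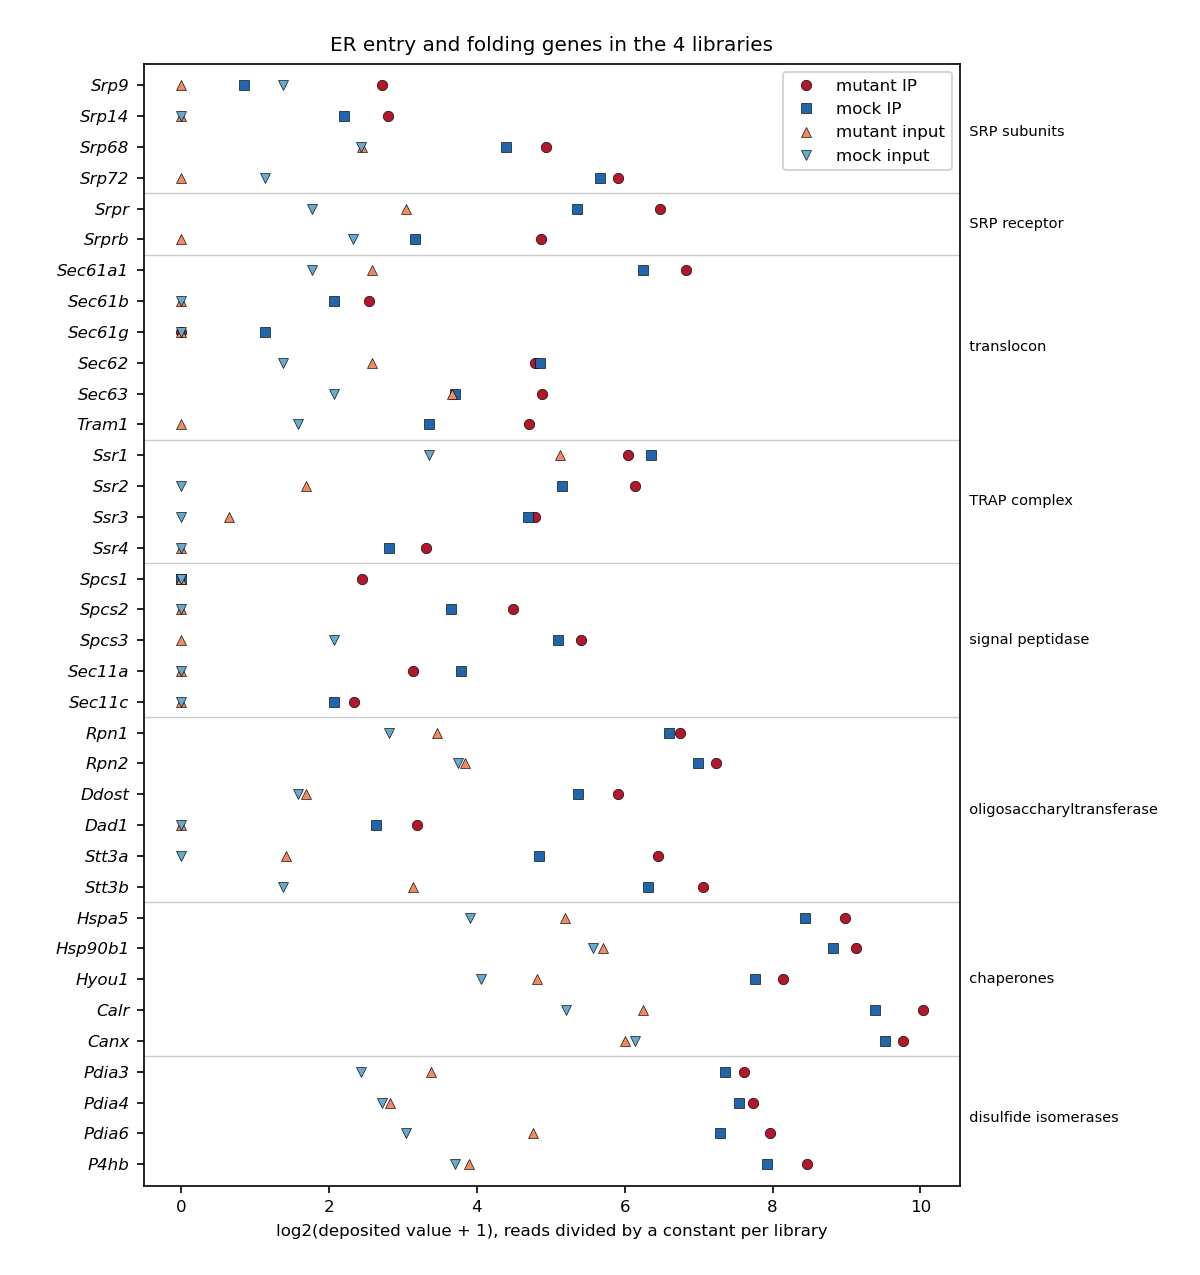
Deposited values of the 36 genes in the 4 libraries, on the log2 scale after adding 1, grouped by role, with 1 point per gene and library. In most genes both IP points lie to the right of both input points, the 2 IP points lie close together, and 14 genes in the mutant input and 12 in the mock input sit at 0.

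Together the ER entry and folding genes were a larger share of the mRNA-table reads in both IPs than in either input, and their shares in mutant and mock cells were close. Without Lars2, they held 1.35% of the reads in the mutant IP (1.33 to 1.37) and 1.29% in the mock IP (1.27 to 1.32), against 0.363% in the mutant input (0.337 to 0.390) and 0.353% in the mock input (0.326 to 0.380). The share was thus 3.72 times as large in the mutant IP as in the mutant input, 3.67 times as large in the mock IP as in the mock input, and 1.04 times as large in the mutant IP as in the mock IP. Counting only transcripts with coding (NM) accessions, these ratios were 2.43, 2.44 and 1.06. Features in general gained over input as well. With equal totals without Lars2, the median log2 ratio of IP over input was 1.47 in the mutant and 1.57 in the mock over all features. The median of these genes was 2.39 and 2.18. With NM totals the medians were 1.18 and 1.23 over all features, and 2.15 and 1.71 for these genes. The tagged protein was present in only 1 of the 2 IPs, and the gain over input was about the same size in both.

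**Figure D2:**
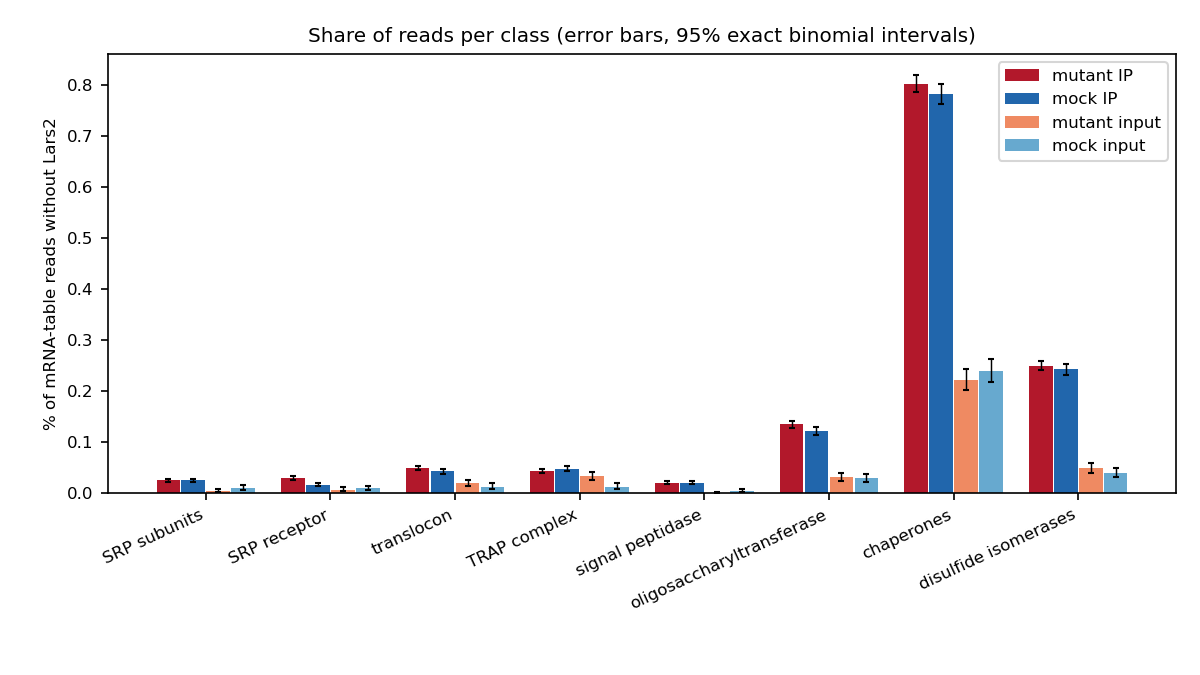
Share of mRNA-table reads without Lars2 held by each class of genes in the 4 libraries, with 95% exact binomial intervals as error bars. The chaperones reach 0.803% of mutant IP reads and 0.782% of mock IP reads, against 0.222% in the mutant input and 0.239% in the mock input, and signal peptidase has no read in the mutant input.

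Some of these genes carry a known control element in their promoters, shown here because its carriers are the chaperones that hold most of the reads. The ER stress response element (ERSE) is bound in mammals by ATF6 and XBP1 together with NF-Y when unfolded proteins build up in the ER. RefSeq promoters of build GRCm38.p6, from 250 bases before to 50 bases after the start site, were found for 29 of the 37 genes, and were searched on both strands for the letters CCAAT and CCACG with 9 bases of any kind between them. The element was found in 5 of the 8 chaperone and isomerase genes that had a promoter and in 0 of the other 21 genes, against 0.119% of all 32851 promoters. The variant ERSE-II (ATTGG and CCACG with 1 base of any kind between them) was found in 0 of the 29 and in 0.0365% of all promoters, so there was no overlap of the motifs in these windows. Other ER genes, in lists described below, also carried ERSE. It was in 2 of 18 other ER folding genes with a promoter, 2 of 14 ER-associated degradation genes and 1 of 19 other N-glycosylation genes. It was in 0 genes of the targeting and insertion, unfolded protein response and vesicle coat lists. ERSE-II was in 1 gene each of the ER folding, N-glycosylation and unfolded protein response lists. A match describes the letters and is not a binding site in these cells. In the stretches below, written 5′ to 3′ on the strand of the gene, capitals mark the fixed letters of the element, which read CGTGG and ATTGG where it lies on the opposite strand.
Hspa5, chr2:34772017-34772051, plus strand: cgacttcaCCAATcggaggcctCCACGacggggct
Calr, chr8:84847067-84847101, minus strand: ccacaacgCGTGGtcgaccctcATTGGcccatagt
Hsp90b1 first match, chr10:86705630-86705664, minus strand: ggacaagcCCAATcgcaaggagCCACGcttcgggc
Hsp90b1 second match, chr10:86705525-86705559, minus strand: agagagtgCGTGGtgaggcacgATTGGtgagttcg
Canx, chr11:50325792-50325826, minus strand: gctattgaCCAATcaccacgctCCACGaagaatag
Pdia6, chr12:17266483-17266517, plus strand: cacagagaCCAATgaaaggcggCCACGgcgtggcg

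The whole promoter window of Hspa5, the gene of the chaperone BiP, shows where its match lies, starting 65 bases before the start site.
Hspa5 promoter, chr2:34771840-34772139, plus strand: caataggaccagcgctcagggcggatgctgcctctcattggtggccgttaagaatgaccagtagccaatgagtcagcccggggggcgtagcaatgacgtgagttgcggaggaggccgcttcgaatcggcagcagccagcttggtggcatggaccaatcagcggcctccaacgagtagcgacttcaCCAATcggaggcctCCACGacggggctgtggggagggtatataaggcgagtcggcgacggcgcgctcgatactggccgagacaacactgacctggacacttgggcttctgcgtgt

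The first comparison, mutant IP over mock IP, sets the reads with the tagged Dis3l2 against those without it. It takes no account of the inputs, so it cannot by itself show which messenger RNAs were recovered with Dis3l2. Dis3l2 itself had 127 mutant IP reads, 21 mock IP reads, 7 mutant input reads and 3 mock input reads. It was 5.60-fold higher between the IPs (3.51 to 9.36), while the interval between the inputs, from 0.740 to 19.4, covered 1. The 7SL RNA of the same particle, as its copy Rn7s1, had 45304 mutant IP reads and 890 mock IP reads, 47.1-fold higher (44.1 to 50.4). Its reads were 16801 in the mutant input and 17358 in the mock input. Rn7s1 thus stood 1.8-fold above input in the mutant (1.77 to 1.83), and at 0.0513 of its input in the mock (0.0479 to 0.0548). The sum of the 36 messenger RNAs was 1.37-fold higher between the IPs (1.34 to 1.41). For 34 of the 36 genes the upper bound of the interval lay below the lower bound of Rn7s1. The exceptions were Srp9, with 2 mock reads, and Spcs1, with 0. The same count was not made over all features, so it does not set these genes apart from others. The median log2 ratio of the 36 genes was 0.54, against 0.38 over all 14273 features tested. At least 4-fold higher were 1 of the 36 genes, against 10.1% of all features, and at least 4-fold lower were 0, against 5.74%. At least 2-fold higher were 7 of the 36, against 28.8% of all features, and 1 was at least 2-fold lower, against 15%. The 7 were Srp9, Srpr, Srprb, Sec63, Tram1, Spcs1 and Stt3a, and the lower one was Sec61g. Features with few reads pass these folds more often: among features with a mean value of at least 20 over the 4 libraries, 10.7% were at least 2-fold higher and 2 of the 19 genes left were. As deposited, 32 of the 36 genes were above 0 on the log2 scale, against 65% of all features. After equal totals without Lars2, 21 were above and 15 below, against 50.7% of features above 0.

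**Figure D3:**
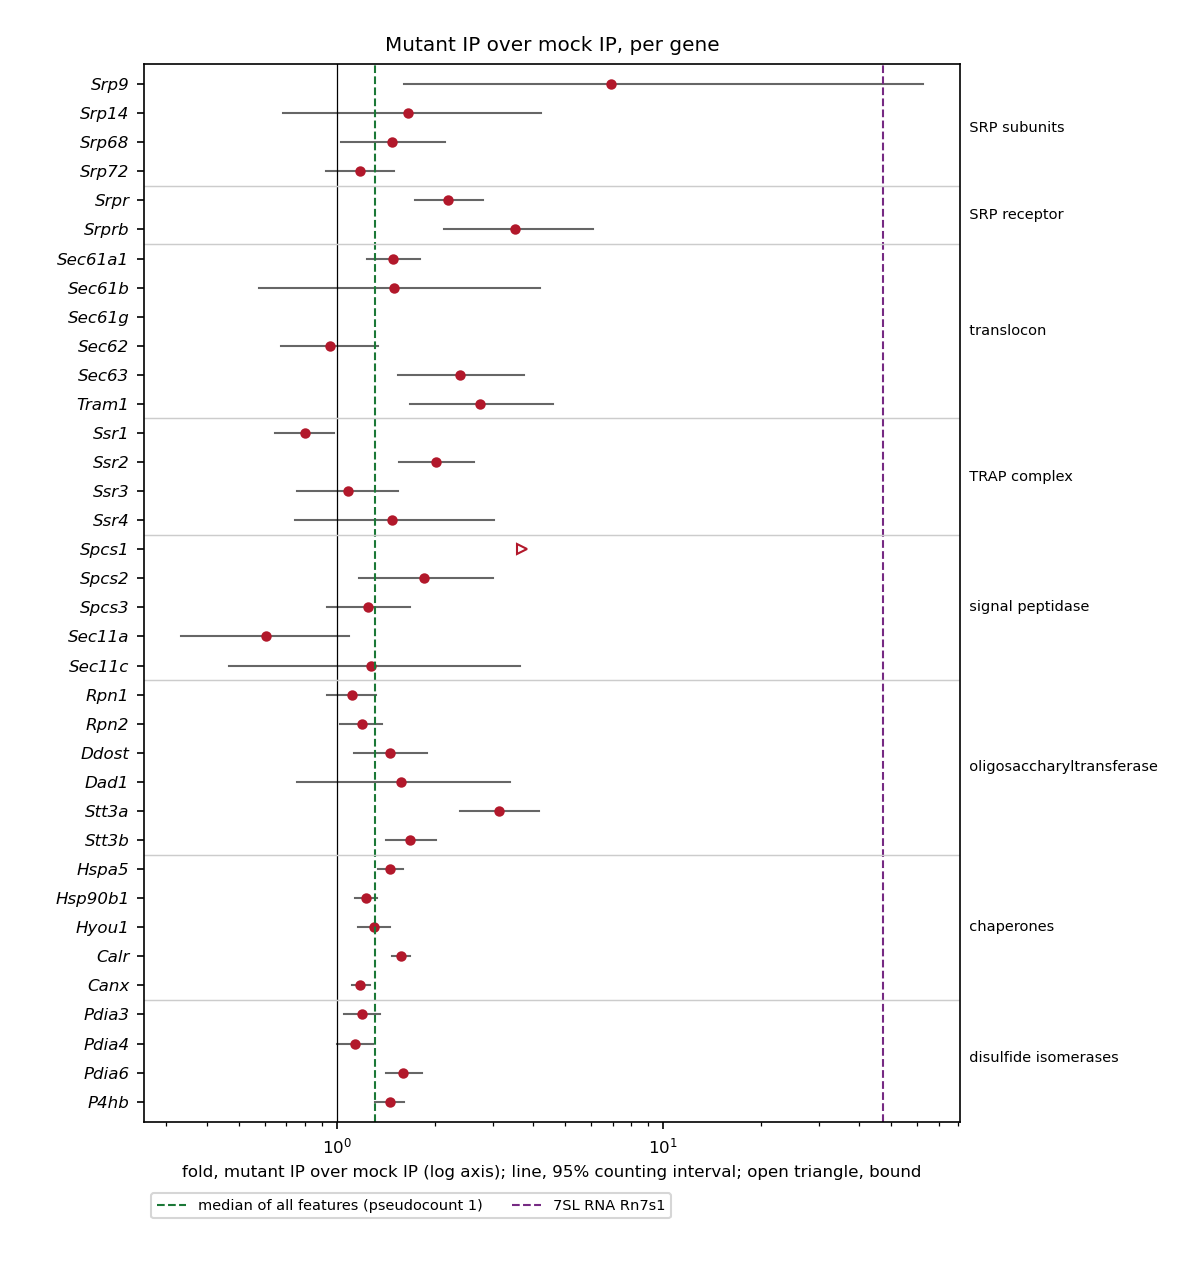
Fold of mutant IP over mock IP for each gene, on a log axis, with 95% counting intervals as lines and a bound as an open triangle where the mock IP had 0 reads. Most genes lie near the dashed green line, the median of all features, and far from the dashed purple line, the 7SL RNA Rn7s1 at 47.1. Sec61g, with 0 and 3 reads, has no fold.

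The messenger RNAs of the SRP protein subunits did not share the ratio of its RNA. Srp72 and Srp68, which form a pair on the domain of 7SL that binds the signal sequence, had 159 reads in the mutant IP against 125 in the mock IP for Srp72, a fold of 1.18 (0.926 to 1.5), and 80 against 50 for Srp68, 1.48-fold (1.03 to 2.15). Srp9 and Srp14 form the pair that pauses translation. Srp14 had 16 mutant IP reads and 9 mock IP reads, with an interval of the fold from 0.685 to 4.23. Srp9 had 15 and 2 reads, a fold of 6.94 with an interval from 1.61 to 62.6, and its log2 ratio of 1.87 passed 2-fold. Summed over these 4 subunits the fold was 1.34 (1.11 to 1.63). This sum leaves out the SRP subunit genes Srp54a, Srp54b and Srp54c, which were kept in a list of other targeting genes described below. Srp54a had 26 mutant IP reads and 44 mock IP reads, Srp54b 26 and 39, and Srp54c 22 and 39. Their log2 ratios were -0.81, -0.64 and -0.86, so all of them were lower in the mutant IP. Counting intervals were not made for them.

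The receptor that SRP docks on was higher in the mutant IP in both of its subunits. Srpr, the subunit that binds SRP, had 237 mutant IP reads and 100 mock IP reads, 2.19-fold (1.73 to 2.80). Srprb, which anchors it in the membrane, had 76 and 20, 3.52-fold (2.13 to 6.08). Their sum was 2.42-fold higher (1.95 to 3.01), and after removal of Lars2 the share of reads was 1.84 times as large in the mutant IP as in the mock IP. In the deposited values Srpr had 87.8 in the mutant IP, 40.0 in the mock IP, 7.22 in the mutant input and 2.40 in the mock input, and Srprb had 28.2, 8, 0 and 4. Srpr was thus also higher in the mutant input, 3.01-fold (1.07 to 9.66). Its IP stood 12.2-fold over input in the mutant (6.97 to 23.2) and 16.7-fold in the mock (7.39 to 46.5). For Srprb, with 0 mutant input reads, these were at least 16.9-fold and 2-fold (0.894 to 4.78). In the mock, where Srprb had 20 IP reads and 10 input reads, the intervals of the subunits did not overlap. In the mutant the bound of Srprb lay within the interval of Srpr. In GRCm38, Srpr overlaps the gene Fam118b, and no source read for this work says whether counting used strand. The same holds for Spcs1 with Glt8d1, Spcs2 with Xrra1, Rpn2 with Mroh8, Hspa5 with Rabepk, Pdia3 with Catsper2 and Pdia6 with Atp6v1c2, 7 of the 36 genes in all.

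Around the channel, the genes differed among themselves. Sec61a1, the channel itself, had 303 mutant IP reads, 188 in the mock IP, 9 in the mutant input and 6 in the mock input, and was 1.49-fold higher between the IPs (1.24 to 1.8). Tram1, which sits beside the channel and helps some signal sequences enter, was 2.74-fold higher (1.68 to 4.60), with 68 reads against 23. Sec63, the partner that recruits BiP to the channel, was 2.38-fold higher (1.54 to 3.75), with 77 against 30, while Sec62, its partner for short proteins, had 72 and 70 reads, a fold of 0.952 (0.676 to 1.34). The intervals of Sec63 and Sec62 did not overlap although both proteins work in 1 complex. Sec61b had 13 mutant IP reads and 8 mock IP reads, and Sec61g had 0 and 3 and no input read, which gives no fold and is the gene that lay below 2-fold on the log2 scale, at -1.14.

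The TRAP complex, which binds the channel and stimulates translocation of some proteins, held both directions. Ssr1 had 175 mutant IP reads and 203 mock IP reads, 0.798-fold (0.648 to 0.982), and Ssr2 had 187 and 86, 2.01-fold (1.55 to 2.63). Ssr3 gave 1.08 (0.755 to 1.54) and Ssr4 1.48 (0.746 to 3.04). Their sum, 458 reads against 366, was 1.16-fold (1.01 to 1.33).

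Signal peptidase, which removes the signal sequence, was covered by few reads. Spcs1, a small accessory subunit, had 12 mutant IP reads and 0 in each of the other libraries. Its log2 ratio of 2.44 is the value past 4-fold, but against a floor of 3 reads it was at least 3.70-fold higher, and with a minimum value of 5 it was not measured. Spcs3, the accessory subunit with the most reads, had 112 and 83 (1.25-fold, 0.932 to 1.68), and Spcs2 had 58 and 29 (1.85-fold, 1.17 to 3). The catalytic subunits Sec11a and Sec11c had 21 against 32 reads and 11 against 8, with intervals that covered 1.

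Oligosaccharyltransferase, which transfers sugar chains to asparagines, has a pair of alternative catalytic subunits, and they differed. Stt3a, the form that works on chains still entering the channel, had 234 mutant IP reads and 69 mock IP reads, 3.14-fold (2.39 to 4.17). Stt3b, which also works on sites passed over by the first, had 358 and 197, 1.68-fold (1.41 to 2.01), and the intervals did not overlap. The shared subunits lay lower: Rpn2 had 405 reads in the mutant IP, 315 in the mock IP, 24 in the mutant input and 31 in the mock input, a fold of 1.19 between the IPs (1.02 to 1.38), and Rpn1 288 and 240, a fold of 1.11 (0.933 to 1.32). Ddost gave 1.46 (1.13 to 1.89) and Dad1 1.57 (0.755 to 3.39).

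The chaperones and disulfide isomerases, with the most reads, had the narrowest range between the IPs, from 1.14 to 1.60-fold. Calr, the lectin chaperone calreticulin, had 2826 mutant IP reads, 1667 in the mock IP, 135 in the mutant input and 90 in the mock input, and was 1.57-fold higher between the IPs (1.48 to 1.67). Canx, its membrane-bound relative calnexin, had 2337, 1828, 114 and 173, with 1.18-fold between the IPs (1.11 to 1.26). Hspa5 (BiP), the ER form of Hsp70, had 1362, 863, 64 and 35, with 1.46-fold (1.34 to 1.59). So between the IPs the lectin pair differed beyond counting error, with Calr above Canx, and neither reached 2-fold. Once input was counted, the order was the other way. Calr stood 14-fold above input in the mutant (11.7 to 16.7) and 18.5-fold in the mock (15 to 23.2). Canx stood 13.7-fold (11.3 to 16.6) and 10.6-fold above input (9.04 to 12.4). Hsp90b1 (GRP94), the ER form of Hsp90, gave 1.23 (1.14 to 1.33) and Hyou1, a nucleotide exchange factor of BiP, gave 1.30 (1.16 to 1.46). Among the isomerases, which form and exchange disulfide bonds, P4hb had 953 mutant IP reads, 606 in the mock IP, 25 in the mutant input and 30 in the mock input, with 1.46-fold between the IPs (1.31 to 1.61). Pdia6 gave 1.60 (1.41 to 1.82), Pdia3 1.19 (1.05 to 1.36) and Pdia4 1.14 (1 to 1.29). Each gene was also set against the summed ratio of the remaining genes. The interval of 11 of the 36 lay above it, that of 8 below it and that of 17 covered it. The intervals cover counting error only, and the same count was not made for other genes, so it does not set these genes apart.

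IP was set against input within each condition, although IP and input may also differ in how the RNA was selected. As a set, these genes stood above the median of all features in mutant and in mock cells alike. Ssr1, Sec63, Sec62 and Sec11c lay below it in the mutant. Srp9, Srp14, Srp68, Srprb, Sec61b, Sec61g, Sec63, Tram1 and Sec11c lay below it in the mock. Summed, all the genes stood 13.2-fold above input in mutant cells (12.3 to 14.3) and 14.9-fold above input in mock cells (13.8 to 16.1). The median log2 ratio was 3.43 in the mutant and 3.59 in the mock, over 35 genes each, against 2.44 and 2.32 over all features. At least 4-fold above input were 33 of 35 genes in the mutant, against 61.1% of all features, and 29 of 35 in the mock, against 60.6%. At least 2-fold above input were 34 of 35 in the mutant, against 81.5%, and 33 of 35 in the mock, against 82.3%. At least 2-fold below input were 0 in the mutant, against 7.24%, and 0 in the mock, against 6.67%. Among features with a mean value of at least 20, these counts were 18 of 19 genes against 76.3% in the mutant and 19 of 19 against 77.7% in the mock, with medians of 3.79 against 3.03 and 4.23 against 3.13. Relative to the median of all features, the median gene stood higher by 0.99 in the mutant and by 1.27 in the mock on the log2 scale.

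**Figure D4:**
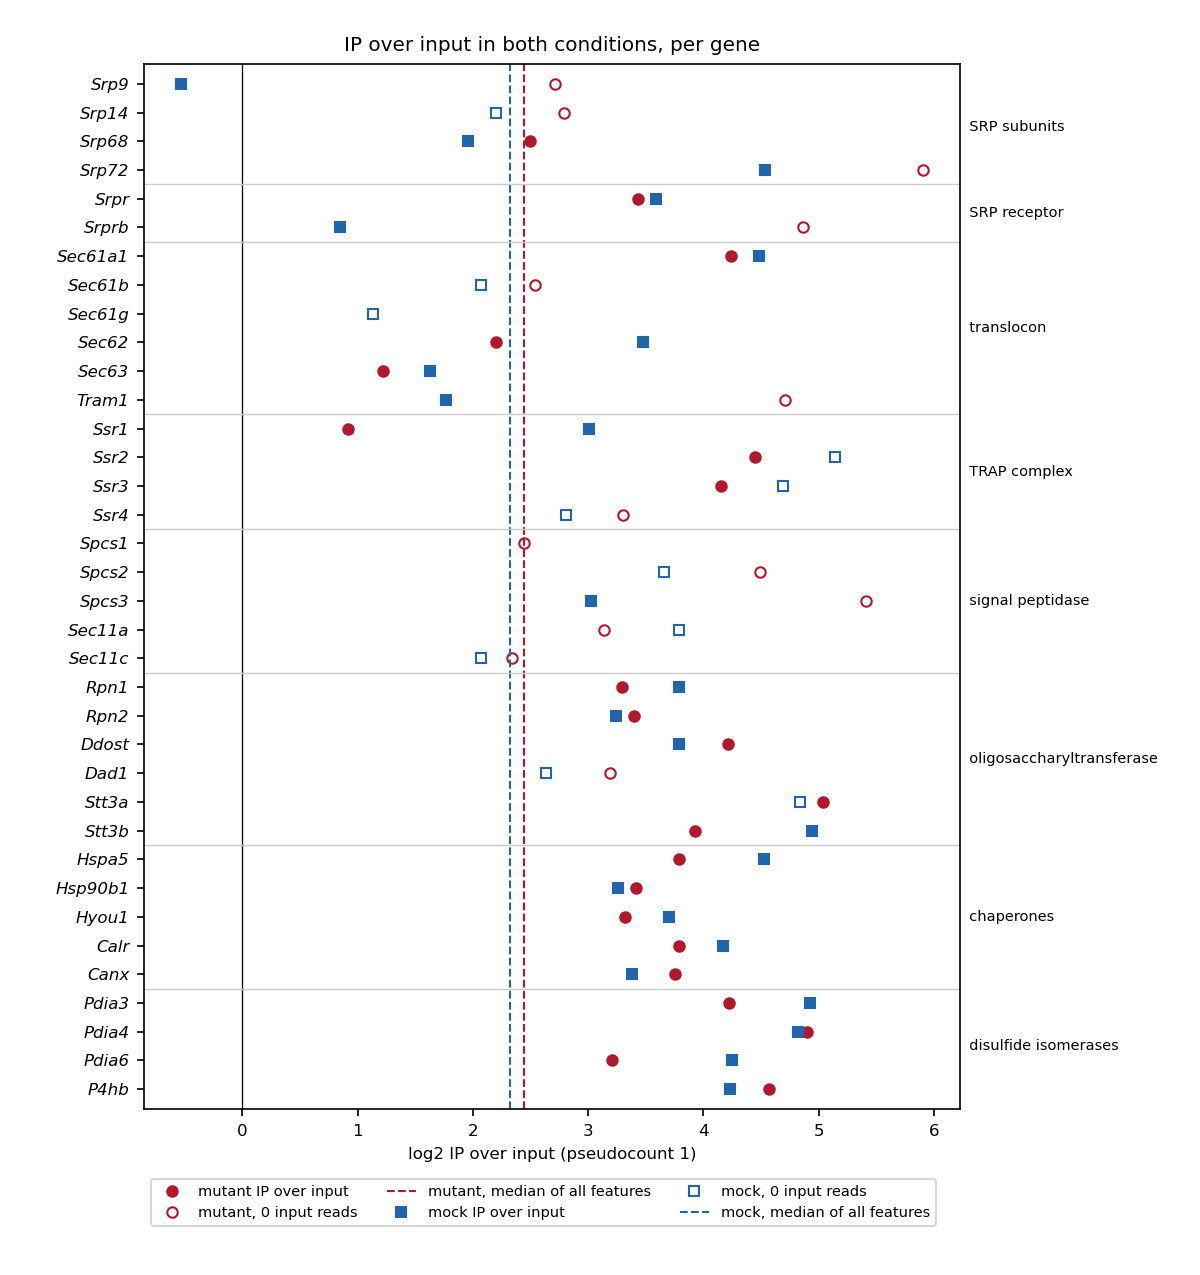
Log2 ratio of IP over input for each gene in mutant cells (circles) and mock cells (squares), with open symbols where the input had 0 reads and dashed lines at the medians of all features, 2.44 in the mutant and 2.32 in the mock. The chaperones and isomerases lie to the right of both lines in both conditions, and Ssr1, Sec63, Sec62 and Sec11c lie to the left of the mutant line. In mock cells Srp9, Srp14, Srp68, Srprb, Sec61b, Sec61g, Sec63, Tram1 and Sec11c lie to the left of the mock line.

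All 9 chaperones and isomerases and all 6 oligosaccharyltransferase genes passed 4-fold in both conditions, as did the signal peptidase genes with a ratio, 5 in the mutant and 4 in the mock. Summed by class in mutant cells, the SRP subunits stood 22.5-fold above input (11.3 to 52.6), the receptor 16.1-fold (9.25 to 30.5), oligosaccharyltransferase 15.5-fold (12.1 to 20.3) and the chaperones 12.9-fold (11.7 to 14.2), and the intervals of these 4 overlapped. The isomerases stood at 18.1-fold (14.9 to 22.4), the translocon at 9.11-fold (6.58 to 13) and the TRAP complex at 4.63-fold (3.57 to 6.08). Ssr1 held 61 of the 66 mutant input reads of the TRAP complex and stood at 1.91-fold (1.42 to 2.6). Ssr2 stood at 31.2-fold (12 to 116), Ssr3 at 48-fold (8.35 to 1922) and Ssr4 at least 5.33-fold. Pdia4, a large isomerase, had 570 IP reads and 11 input reads in the mutant, 34.5 times its input (19.2 to 69.6), and 465 and 14 in the mock, 33.2 times (19.6 to 61.2). Hsp90b1 stood 10.9-fold above input in mutant cells (8.81 to 13.6) and 9.73-fold in mock cells (8.03 to 11.9), and the intervals of Pdia4 and Hsp90b1 did not overlap in either condition. By destination of the encoded protein, the 8 genes for proteins of the ER lumen had a median log2 ratio of 3.79 in mutant cells and 4.24 in mock cells, and the genes for ER membrane proteins 3.43 and 3.38. The 4 SRP subunits, made for the cytosol, had 2.75 in the mutant and 2.08 in the mock. The summed reads gave another order in the mutant, with 22.5-fold for the SRP subunits, 13.9-fold for the lumen (12.6 to 15.3) and 12.0-fold for the membrane (10.7 to 13.6), and in the mock 10.3-fold (6.36 to 17.8), 17.2-fold (15.4 to 19.2) and 12.5-fold (11.1 to 14.1). Many of the lower values rest on 0 input reads, where the ratio is held down by the pseudocount. With such genes at their bound against a floor of 3 reads, the median fold over all genes with a value was 12.2 in the mutant and 12.2 in the mock.

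Single genes of several classes stood at the ends of the range. Srp72, the SRP subunit, had 159 IP reads and 0 input reads in the mutant, at least 35.3-fold higher, and 125 and 3 in the mock, 41.7-fold (13.9 to 205), the highest log2 ratio in the mutant at 5.90. Ssr2 had 86 IP reads and 0 input reads in the mock, at least 28.7-fold higher, the highest log2 ratio there at 5.15. Stt3a, with 3 mutant input reads, was 52.0-fold above input in mutant cells (17.6 to 254), and its mock IP had 69 reads against 0 in the mock input, at least 23.0-fold higher. At the other end, Sec63 was 2.44-fold above input in mutant cells (1.49 to 4.17) and 3.75-fold in mock cells (1.68 to 9.47). Ssr1 was 1.91-fold above input in mutant cells (1.42 to 2.60), the lowest there, and 8.83-fold in mock cells (5.72 to 14.2). After scaling to equal totals, Ssr1 stood below its input in the mutant, at -1.35 on the log2 scale, and Sec63 stood below its input in both, at -0.99 in mutant cells and -0.72 in mock cells. Srprb, with 20 mock IP reads and 10 mock input reads, stood at -1.56 in mock cells under that scaling.

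For comparison, 86 genes named as cytosolic ribosomal proteins, whose messages are translated on free ribosomes, had a median log2 ratio of IP over input of 2.40 in mutant cells and 2.12 in mock cells, near the median of all features. The 20 cytosolic aminoacyl-tRNA synthetases had 2.97 and 3.05. The difference of the ER genes from these lists was not tested, since there is 1 library a group.

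Between the inputs, few reads covered these genes, and the number past 2-fold was near that of all features. Of the 36 genes, 9 had 0 reads in both inputs and 19 had reads in both. The sum of all genes was 1.54-fold higher in the mutant input (1.39 to 1.71) as deposited, but their share of all mRNA-table reads was 1.05 times that in the mock input, and 1.03 times without Lars2. At least 2-fold higher were 10 of 26 genes tested, against 37% of all features, and at least 2-fold lower were 5, against 21.8%. At least 4-fold higher were 0, against 10%, and at least 4-fold lower 2, against 4.74%. The 2 were Srprb and Spcs3, with 0 reads in the mutant input and 10 and 8 in the mock input, at least 2.40- and 1.92-fold lower. The median log2 ratio was 0.71, against 0.51 over all features.

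**Figure D5:**
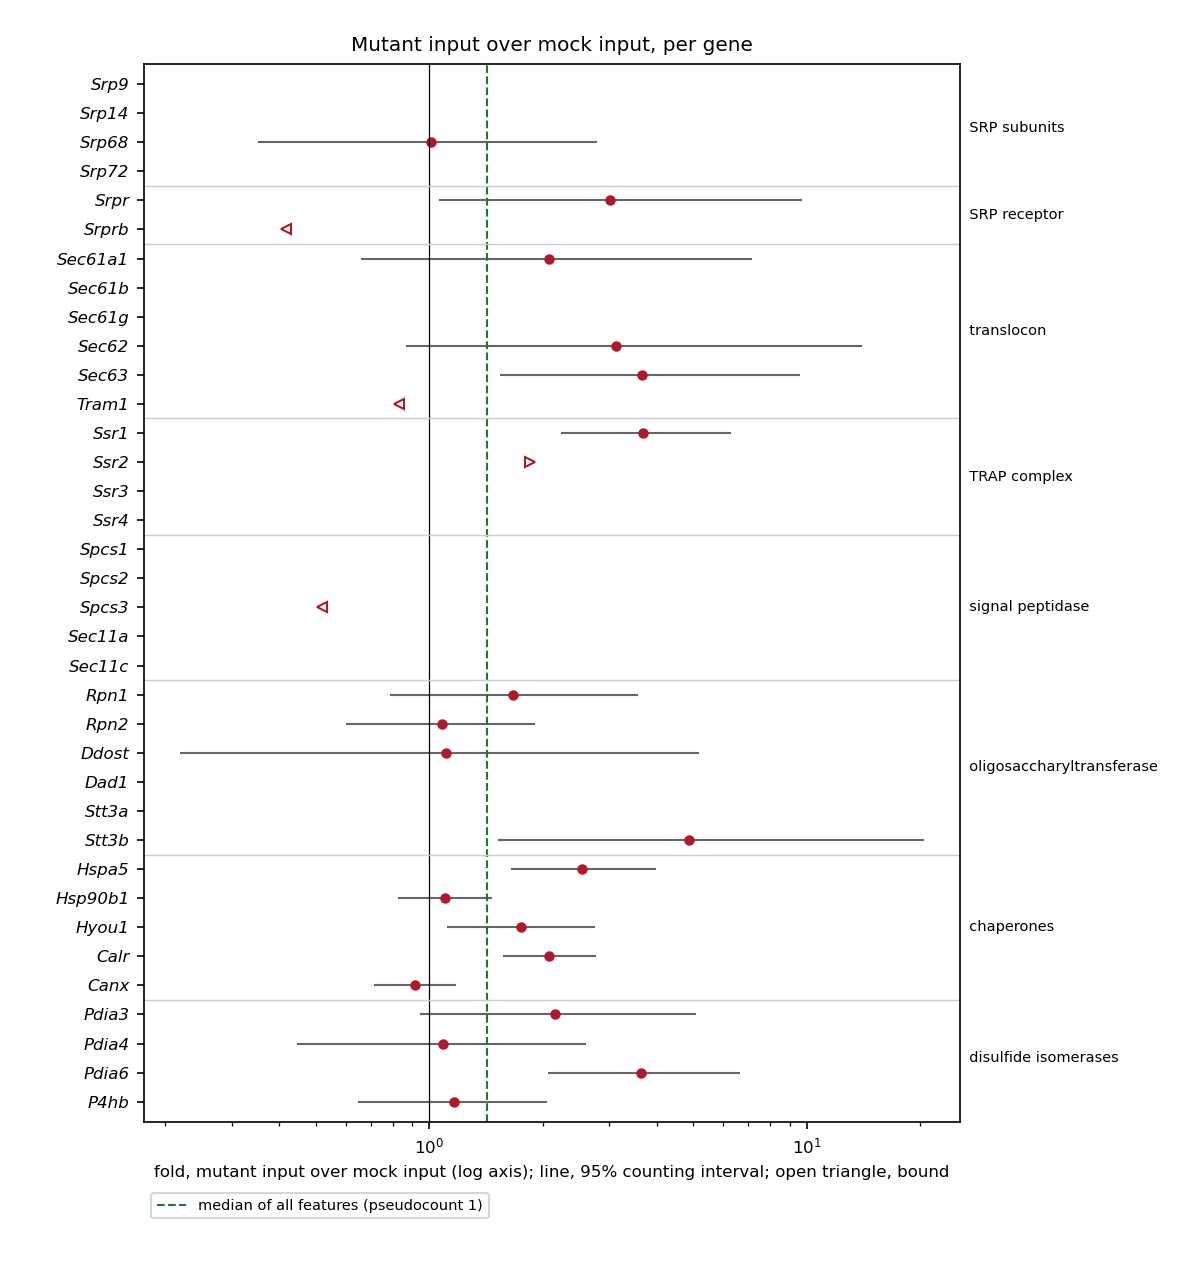
Fold of mutant input over mock input for each gene, on a log axis, with 95% counting intervals as lines and open triangles for bounds where 1 input had 0 reads. Pdia6, Ssr1, Hspa5, Calr, Sec63 and Stt3b lie to the right of the dashed line at the median of all features with their whole intervals, Canx lies to the left of it, and 13 genes have no fold.

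Among the chaperones and isomerases, the isomerase Pdia6 had 47 reads in the mutant input and 18 in the mock input, 3.63-fold (2.07 to 6.63). Hspa5 had 64 and 35, 2.54-fold (1.66 to 3.95), and Calr 135 and 90, 2.08-fold (1.58 to 2.75). Canx had 114 and 173, a fold of 0.915 (0.716 to 1.17), and Hsp90b1 92 and 116, a fold of 1.10 (0.829 to 1.46). With equal totals, the log2 ratios were 1.29 for Pdia6, 0.79 for Hspa5, 0.51 for Calr, -0.41 for Hsp90b1 and -0.68 for Canx, so that of these Pdia6 stayed past 2-fold. Without Lars2, the chaperones as a class held 0.222% of mutant input reads and 0.239% of mock input reads. All 5 genes carry the element shown above, and their folds as deposited ranged from 0.915 to 3.63. Their sum gave 1.45 (1.27 to 1.66), and that of Pdia3, Pdia4 and P4hb, whose promoters had no match, 1.34 (0.900 to 1.99). Outside the chaperones, Ssr1 had 61 reads in the mutant input and 23 in the mock input, 3.68-fold (2.25 to 6.24), Stt3b 14 and 4, and Sec63 21 and 8.

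The specific enrichment divides IP over input in the mutant by IP over input in the mock. Over the 36 genes its median log2 value was 0.16, against 0.13 over all 15060 features. At least 4-fold higher were 5 genes, against 13.8% of all features, and 1 was lower, against 10.6%. The 5 were Srprb at 4.02, Srp9 at 3.24, Tram1 at 2.95, Spcs1 at 2.44 and Spcs3 at 2.38. All of them had 0 reads in the mutant input: Srprb, Spcs3, Tram1 and Srp9 had 10, 8, 5 and 4 reads in the mock input, and Spcs1 had 0. Among the 22 genes with reads in the mutant input, 0 were 4-fold higher and the median was -0.39. The mutant input is a divisor of this ratio, so picking genes by it shifts the median down by itself. The same split was not made over all features. The gene that was lower was Ssr1, at -2.10, which had 61 reads in the mutant input. Among the 19 genes with a mean value of at least 20, 0 were 4-fold higher and 1 was lower, against 5.38% and 6.1% of such features. The 7SL RNA Rn7s1 stood at 5.13, with 1.8-fold over input in the mutant and 0.0513-fold in the mock.

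Other genes of the same pathway were looked at from 6 lists. Between the IPs, 2 of 24 other targeting and insertion genes were at least 4-fold higher and 0 lower (median log2 ratio -0.08), 2 of 21 other N-glycosylation genes were higher and 3 lower (0.15), and 1 of 25 other ER folding genes was higher and 0 lower (0.53). Of 13 genes of the unfolded protein response, the program that raises ER chaperones, 2 were higher and 0 lower (0.88). Of 20 genes of ER-associated degradation 0 were higher and 0 lower (0.43), and of 23 coat genes of vesicles between ER and Golgi 1 was higher and 1 lower (0.46). All of these stand beside 10.1% and 5.74% of all features. Herpud1, an ER membrane protein of the degradation complex, had 71 mutant IP reads and 6 mock IP reads, 11.0-fold (4.79 to 30.9). Ddit3 (CHOP), a transcription factor of the stress response, had 53 and 9, 5.45-fold (2.67 to 12.6), and Dnajb9, a cochaperone of BiP, 28 and 1, 25.9-fold (4.29 to 1060). Of the 13 genes of the response, 6 were at least 2-fold higher and 0 lower, against 28.8% and 15% of all features. Their log2 ratios ran from -0.59 to 3.01, with Xbp1, Atf4 and Ppp1r15a below 0 at -0.53, -0.35 and -0.59. BiP itself was at 1.46-fold between the IPs. Between the inputs, Herpud1 was 4.86-fold higher (0.926 to 48), Dnajb9 3.33-fold (1.09 to 12.1) and Ddit3 1.74-fold (0.374 to 8.75). The median log2 specific enrichment of the 13 genes was 0.07, against 0.13 over all features.

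In the other lists, Emc3, a subunit of a membrane protein insertase, was 10.0-fold higher in the mutant IP (4.03 to 32), with 54 reads against 5, and Alg9, a mannosyltransferase of the sugar chain precursor, 7.30-fold (3.64 to 16.6), with 71 against 9. Sec24a, a cargo-binding coat subunit, was 4.41-fold higher (3.09 to 6.43), with 181 against 38. Cope, a subunit of the coat that returns proteins to the ER, had 21 against 89, a fold of 0.218 (0.129 to 0.355). Ost4, a small oligosaccharyltransferase subunit, and Tmem208 had 15 and 9 reads against 0, at least 4.63- and 2.78-fold higher. With 0 mutant IP reads, Tmem258, Dpm2 and Ostc had 23, 22 and 8 mock IP reads, which makes them at least 8.28-, 7.92- and 2.88-fold lower. Small subunits of 1 enzyme, oligosaccharyltransferase, thus lay at both ends, as Ost4 was higher and Tmem258 and Ostc were lower. For the other lists, the median log2 ratio of IP over input was between 2.45 and 3.22 in the mutant and between 2.32 and 3.13 in the mock, below the 3.43 and 3.59 of the genes above. The 10 embryonic stem cell markers stood above them, with medians of 4.26 in mutant cells and 3.69 in mock cells.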

How the data were processed

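RNA from inputs and anti-FLAG immunoprecipitates was sequenced, with 4 libraries in 4 groups. The submitters' processing notes name Bowtie and the mouse build mm9. How reads were counted, by strand or at several positions, is not stated there or in the labels. The authors deposited a signal per transcript in 2 tables. In both, 100% of values were whole reads divided by a constant per library, within 0.0051. What the constants stand for is not given. Reads were recovered with them.

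Log2 ratios used a pseudocount of 1, over features whose value reached 1 in some library of the ratio, on the deposited scale, without further scaling. Folds of at least 2 or 4 were counted. Intervals for ratios are exact conditional binomial ones. Where 1 library had 0 reads and the other over 3, the fold is a bound against 3 reads per library. Such folds compare libraries, not conditions. PCR copies are not independent, and no count test was possible with 1 library a group. In the mRNA table, 26 names turned into dates were restored by accession.

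The genes and lists were chosen with earlier results of these data known. For each class the gene with the most reads, those past 2-fold between the IPs or 4-fold in the specific enrichment, and the extremes are described with their values; in the other lists, those past 4-fold between the IPs. The chaperone and isomerase pairs compared were chosen after their values were seen. Names and promoters came from RefSeq (GRCm38). A planned use of protein sequences and lengths was not made. Alternatives changed the pseudocount, the filter, the scaling and the choice of row. Scripts ran in Python 3.11.15 with numpy 2.4.6, pandas 2.3.3 and scipy 1.17.1 and were tested on simulated data.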

Additional observations from a re-analysis of the deposited data

Results flagged for a closer look

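Srp9 moved in opposite directions between IP and input, with log2 ratios of 2.71 in mutant cells and -0.53 in mock cells. It had 15 IP reads and 0 input reads in the mutant, and 2 IP reads and 4 input reads in the mock. The fold was at least 3.33 in the mutant and 0.5 in the mock, with an interval from 0.0452 to 3.49. The difference between mutant and mock was not tested, since each has 1 library.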

How the results depend on the processing

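No paired analysis was possible because each group has 1 library. The 9 alternatives included 3 chosen after seeing the data: totals of coding (NM) transcripts without Lars2, a mean value of at least 20, and leaving out Calr, Canx, Hsp90b1 and Hspa5. Values below are in the order mutant IP over mock IP, mutant IP over input, mock IP over input, mutant input over mock input, where given. The median log2 ratios were 0.37, 2.92, 2.60 and 0.43 with a pseudocount of 5, 0.36, 2.30, 1.65 and 0.21 with equal totals, 0.15, 2.39, 2.18 and 0.18 with equal totals without Lars2, 0.17, 2.15, 1.71 and 0.23 with totals of NM transcripts, and 0.15, 0.99, 1.27 and 0.20 when centred on the median of all features. With a minimum value of 5 the last 3 medians were 3.77, 3.74 and 0.95, and with a mean value of at least 20 the IP over input medians were 3.79 and 4.23 and the specific enrichment median was -0.25. Between the IPs, the number at least 2-fold higher was 4 of 36 with a pseudocount of 5, without Lars2 (20.9% of all features) and when centred. With the mean filter it was 2 of 19 (10.7% of such features). The number at least 4-fold higher was 0 with a pseudocount of 5, a minimum of 5 and the mean filter. The number at least 4-fold above input in the mutant and the mock was 21 and 15 with equal totals (36.1% and 35.4% of all features), 19 and 15 with NM totals (33.6% and 35.8%), 9 and 9 when centred, and 18 and 19 of 19 with the mean filter. Of 26 genes, the number at least 2-fold higher between the inputs was 4 with a pseudocount of 5, 6 without Lars2 (33.1% of all features) and 5 when centred. The number at least 4-fold higher in the specific enrichment was 1 with a pseudocount of 5 and 0 with the mean filter (5.38% of such features). Shares over all features were not counted with a pseudocount of 5, with a minimum of 5 or when centred.

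Single genes changed sign in IP over input only under the scaling alternatives, where each library is multiplied by 1 factor or each ratio shifted by 1 value. With equal totals, Sec63 stood at -0.99 in the mutant and -0.72 in the mock, Ssr1 at -1.35 in the mutant, and in the mock Srprb at -1.56, Srp68 at -0.47 and Tram1 at -0.43. Without Lars2, Sec63 stood at -0.52 in the mutant and -0.11 in the mock, Ssr1 at -0.88 in the mutant and Srprb at -0.94 in the mock. With NM totals, Sec63 stood at -1.12 in the mutant and -0.66 in the mock, Sec62 at -0.029 and Ssr1 at -1.49 in the mutant, and in the mock Srprb at -1.5, Srp68 at -0.41 and Tram1 at -0.37. When centred, Sec63 stood at -1.22 in the mutant and -0.69 in the mock, Sec11c at -0.10 in the mutant and -0.25 in the mock, Sec62 at -0.24 and Ssr1 at -1.53 in the mutant, and in the mock Srprb at -1.47, Srp14 at -0.12, Srp68 at -0.36, Sec61b at -0.25, Sec61g at -1.18 and Tram1 at -0.56. Input depth limits these ratios: the median gene had 6 reads in the mutant input and 5.5 in the mock input.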
